A study of Mus musculus with 2 samples.

Results

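The lysosomal genes described here are 48 genes of the acid hydrolases, cathepsins and membrane proteins of the lysosome, chosen by gene symbol from a list. That list was drawn up with earlier results of these data known. All 48 were among the 14339 named genes of the expression table, and 47 had a mean of at least 1 FPKM over both libraries, against 11087 of all genes. FPKM counts the fragments of a gene per kilobase of its transcript and relative to all mapped fragments of the library, which allows levels to be compared between genes of different length. The exception, Laptm5, a lysosomal protein of blood cells, had 0.551 FPKM in the ClpP siRNA library and 0.666 FPKM in the GFP siRNA library.

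The samples were mouse primary hepatocytes, the main cell type of the liver, taken from the animal and cultured. One library was made from cells transfected with an siRNA that targets ClpP, a protease of the mitochondrial matrix that works with the unfoldase ClpX. The other was made from cells transfected with siRNA against green fluorescent protein (GFP), which mouse cells do not make. Both groups received the cationic lipid reagent Lipofectamine with the siRNA, and RNA with a poly-A tail was sequenced. The sources used here give no strain, age, siRNA dose or harvest time. Each group held 1 library, so that every difference is between 2 libraries, with no replicate check, no test and no standard error. Differences are given as the log2 ratio, the value of log2(FPKM + 1) with ClpP siRNA minus that with GFP siRNA. The added 1 makes differences of genes at low levels look smaller. A gene was counted as higher or lower where this ratio was at least 1 in size, which is 2-fold. As a description of scatter, each ratio was set beside the 16th and 84th percentiles of the ratios of the 500 genes nearest in mean FPKM, called the local range.

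Lysosomes are acidic organelles that break down proteins, glycans, lipids and nucleic acids taken up from outside the cell or delivered by autophagy. Their soluble enzymes are made in the endoplasmic reticulum, tagged with mannose 6-phosphate in the Golgi and carried to the lysosome by receptors for that tag. The transcription factor TFEB and its relatives switch on many of these genes through E-box sequences called CLEAR elements. Hepatocytes use lysosomes heavily, to clear plasma glycoproteins and lipoproteins and to recycle their own contents.

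Clpp, the targeted gene, had 9.32 FPKM in the ClpP siRNA library and 45.1 FPKM in the GFP siRNA library, a log2 ratio of -2.16. The 10 hepatocyte markers summed to 11183 FPKM in the ClpP siRNA library and 9916 FPKM in the GFP siRNA library, and all passed the filter. Of these, 6 (60%) were at least 2-fold higher with ClpP siRNA, where 5.19% of all genes were. By log2 ratio they were Cps1 (2.79), Apoa1 (1.75), Fga (1.09), Ttr (1.08), albumin (Alb, 1.08) and Tat (1.01). Alb had 6245 FPKM in the ClpP siRNA library and 2952 FPKM in the GFP siRNA library. The other 4, Serpina1a (-0.88), Trf (-0.76), Asgr1 (-0.61) and Apob (-0.32), were below their local ranges. The least abundant in 1 library or the other were Asgr1, at 4.19 FPKM in the ClpP siRNA library and 6.91 FPKM in the GFP siRNA library, and Cps1, at 27.8 FPKM in the ClpP siRNA library and 3.15 FPKM in the GFP siRNA library. Each of 12 interferon response genes was past 2-fold upwards with ClpP siRNA, and their median log2 ratio was 4.12. The summed FPKM of 10 sinusoidal endothelial markers was 17.9 in the ClpP siRNA library and 31.0 in the GFP siRNA library. That of 9 stellate cell and fibroblast markers was 16.4 in the ClpP siRNA library and 36.6 in the GFP siRNA library. None of 15 lymphocyte and neutrophil markers was analysed here. The part of the interferon response, of the hepatocyte markers and of these other cells in the lysosomal values was not tested, and in such bulk RNA fewer cells of a type and less RNA per cell cannot be told apart.

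The lysosomal genes were shifted towards higher values in the ClpP siRNA library, led by Cd68, Npc2, Ctsh, Ctsb, Grn, Lgmn, Ctsz and Gla. At 2-fold or more, these 8 of the 47 genes (17.0%) were higher, where 5.19% of all genes were. None of the 47 was at least 2-fold lower, where 2.04% of all genes were. The median log2 ratio of the 47 was 0.40, beside -0.01 for all genes. A ratio above 0 was found for 39 of the 47, or 83.0%, beside 49.3% of all genes. On the quantile normalized scale it was 37, since Asah1 and Hexa were just below 0 there. A ratio above the local range was found for 20 of the 47 (42.6%), beside 16.1% of all genes, and a ratio below it for 2, Ctsf and Ids. The shift was small for most genes, since 30 of the 47 lay within 0.5 of 0 on the log2 scale and 14 within 0.25. The genes were chosen with earlier results of these data known, so these shares are not independent of the data.

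**Figure D1:**
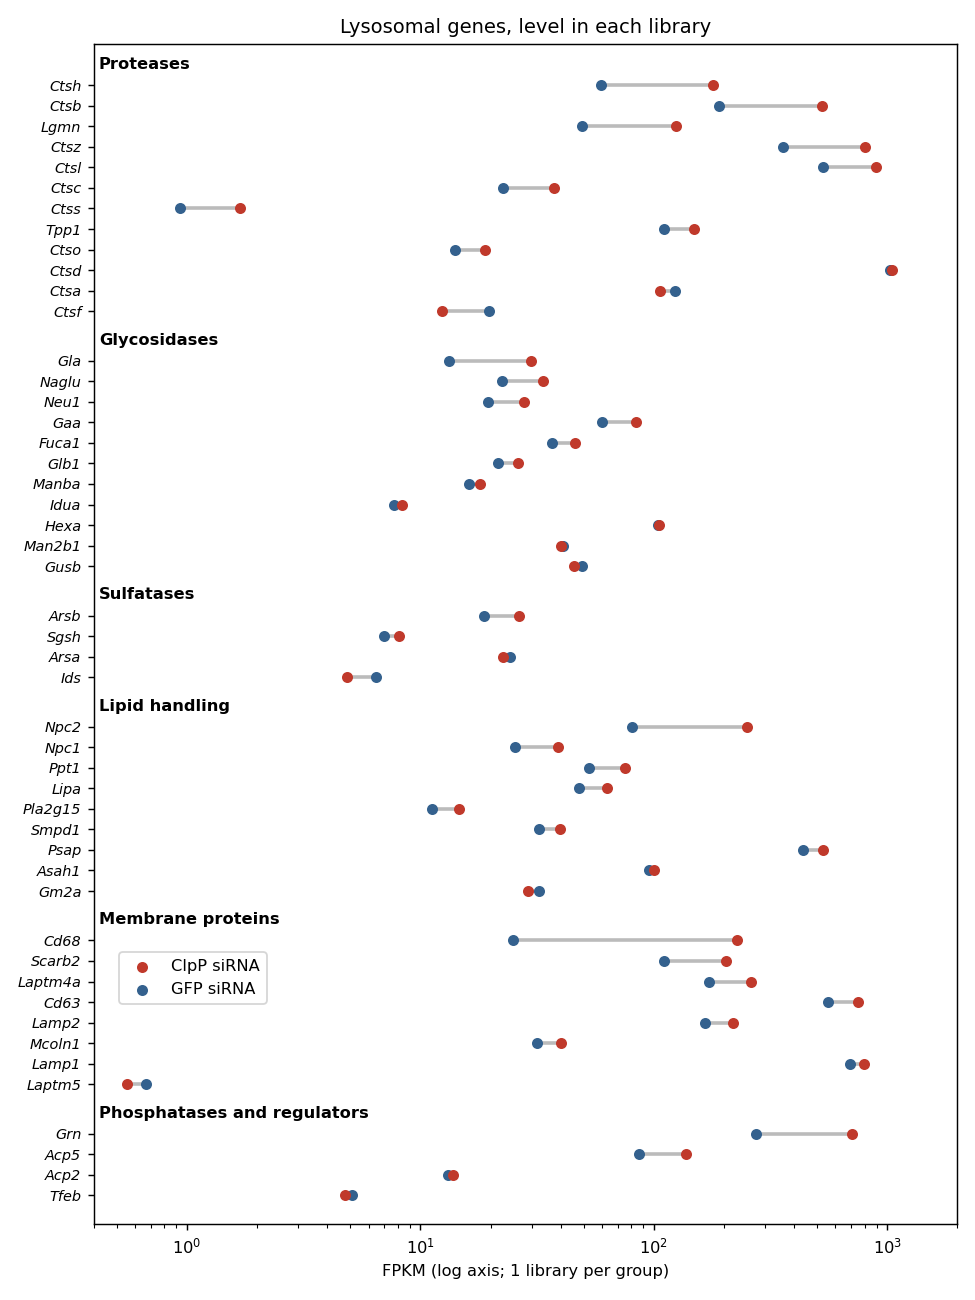
Level of each of the 48 lysosomal genes in FPKM (log axis) in the ClpP siRNA library (red) and the GFP siRNA library (blue), 1 point per library, with genes grouped by role and sorted by log2 ratio. The widest gap is that of Cd68, at 226 FPKM with ClpP siRNA and 24.9 FPKM with GFP siRNA, while Ctsd, the most abundant gene, is at 1051 and 1027 FPKM.

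Together the 48 genes made up 1.67% of all FPKM in the ClpP siRNA library and 1.11% in the GFP siRNA library. Their summed level was 8928 FPKM in the ClpP siRNA library and 5902 FPKM in the GFP siRNA library, a ratio of 1.51. The 8 genes past 2-fold accounted for 59.4% of that net difference. Among single genes, Ctsz contributed 14.9% of it, Grn 14.2%, Ctsl 12.1% and Ctsb 11.0%. Such shares weight each gene by its level, so abundant genes count for more by construction. Ctsd and Lamp1, which ranked 1 and 2 in the GFP siRNA library, contributed 0.79% and 3.25%. Of the 18 genes with a mean of at least 100 FPKM, 6 were at least 2-fold higher, and their median log2 ratio was 0.62. Of the 29 genes below 100 FPKM, 2 were at least 2-fold higher, and their median was 0.32. Of all genes at or above that level 9.86% were past 2-fold upwards, and of those below it 4.84%. Across the 47 genes, mean FPKM and log2 ratio had a Spearman rho of 0.39, beside 0.02 across all 11087 genes. The mean includes the ClpP siRNA library, so a gene higher there is moved towards high levels. Cd68, Ctsh and Npc2, counted among the 6, had 24.9, 59.5 and 81.0 FPKM in the GFP siRNA library. These counts and the rho thus do not show whether level in the GFP siRNA library and ratio go together. The genes share both libraries, so these values are a description of these libraries.

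**Figure D2:**
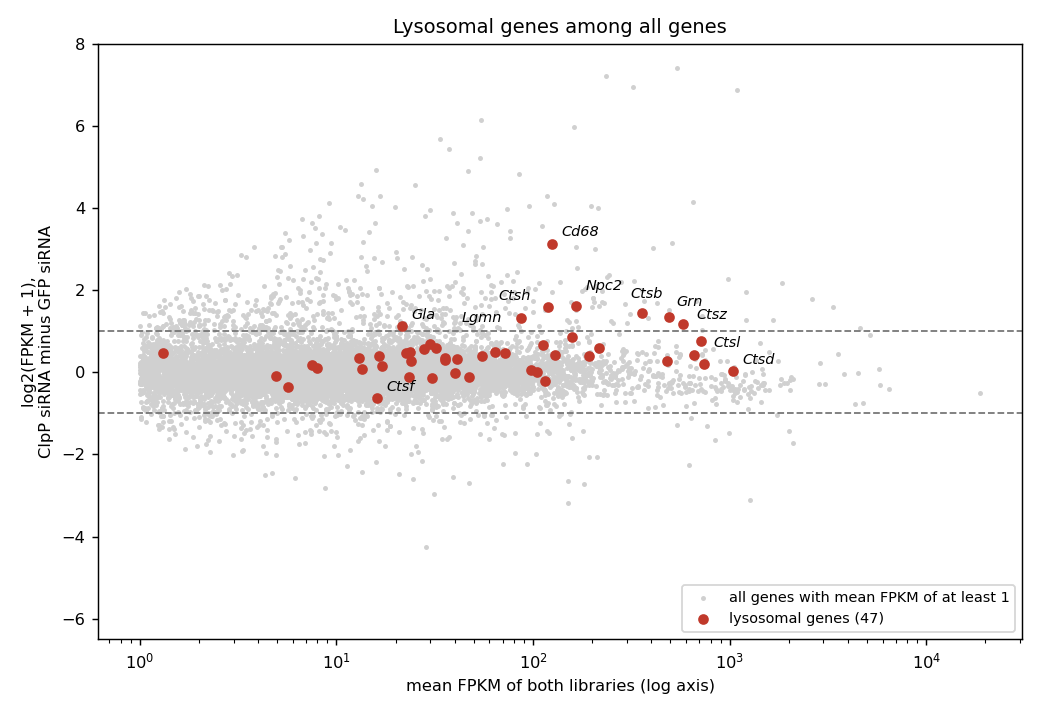
Log2 ratio of ClpP siRNA minus GFP siRNA (vertical axis, log2 of FPKM + 1) against mean FPKM of both libraries (log axis), with 1 point per gene for all 11087 genes (grey) and the 47 lysosomal genes (red); dashed lines mark 2-fold. The lysosomal genes past the upper line lie mostly at a high mean level, which includes the ClpP siRNA library, and none lies below the lower line.

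The DNA before the start sites is shown for 4 genes with ratios above 0. Cd68 and Npc2 had the largest ratios, Gla was the glycosidase past 2-fold, and Lamp1, the classical lysosomal membrane marker, differed little. The sequences are the 250 bases before the RefSeq start, 5′ to 3′ on the strand of the gene, from RefSeq on GRCm38.p6. Cd68 is at chr11:69666171-69666420 on the minus strand, Npc2 at chr12:84773113-84773362 on the minus strand, Gla at chrX:134601006-134601255 on the minus strand and Lamp1 at chr8:13158911-13159160 on the plus strand. Capitals mark the E-box core CACGTG.
Cd68: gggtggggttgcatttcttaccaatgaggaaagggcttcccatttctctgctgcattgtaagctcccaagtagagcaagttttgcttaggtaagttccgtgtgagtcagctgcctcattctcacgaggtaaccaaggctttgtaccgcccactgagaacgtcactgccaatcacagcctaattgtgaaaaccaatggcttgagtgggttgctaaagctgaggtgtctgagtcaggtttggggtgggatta
Npc2: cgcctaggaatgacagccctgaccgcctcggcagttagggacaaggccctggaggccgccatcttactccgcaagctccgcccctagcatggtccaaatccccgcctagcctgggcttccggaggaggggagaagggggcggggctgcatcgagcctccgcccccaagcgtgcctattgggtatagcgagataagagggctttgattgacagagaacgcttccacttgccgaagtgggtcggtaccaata
Gla: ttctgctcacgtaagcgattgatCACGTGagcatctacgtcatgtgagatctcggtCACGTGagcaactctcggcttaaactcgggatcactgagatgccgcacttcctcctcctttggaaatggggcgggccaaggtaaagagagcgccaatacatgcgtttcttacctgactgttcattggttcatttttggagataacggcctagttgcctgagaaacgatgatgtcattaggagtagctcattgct
Lamp1: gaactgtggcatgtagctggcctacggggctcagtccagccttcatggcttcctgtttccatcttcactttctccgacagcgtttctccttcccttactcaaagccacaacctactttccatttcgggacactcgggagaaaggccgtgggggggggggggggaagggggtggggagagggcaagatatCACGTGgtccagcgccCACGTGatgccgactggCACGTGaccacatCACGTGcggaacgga
Gla held 2 E-box cores, whose first bases lay at -227 and -194 from the start, and both were part of the longer match TCACGTGA. Lamp1 held 4, at -61, -45, -28 and -15. Cd68 and Npc2 held 0 in these bases. Lamp1 with 4 matches had a log2 ratio of 0.19, and Cd68 with 0 had 3.14. These 4 genes were picked partly by their ratios, so they cannot show whether matches and ratio go together.

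Promoter windows of 300 bases (250 before the start and 50 after it) were found for 44 of the 48 genes; Ctsb, Ctsh, Npc1 and Asah1 had no entry. Both strands were searched, and a gene with several windows was counted once. CACGTG was present for 13 of the 44 lysosomal genes (29.5%). The shares were 12.2% of 8406 genes that passed the filter on level and had a window, and 8.09% of all 27025 genes with a window. It was present for 2 of the 6 genes at least 2-fold higher (33.3%), Gla and Lgmn, and for 11 of the 37 that passed the filter and were not (29.7%). The longer TCACGTGA, which contains CACGTG, was present for 4 lysosomal genes, namely Gla, Mcoln1, Ctsd and Ctsa. That is 9.09% of the 44, beside 2.39% of the genes that passed the filter. GAAANNGAA, a part of the interferon response element, was present for 5 of the 44 (11.4%, beside 8.42%), namely Acp5, Ppt1, Ctss, Ctso and Lamp1. The STAT-type motif TTCNNNGAA was present for Ctsc, Arsa and Gm2a (6.82%, beside 8.29%). Neither of these last motifs was present for the 6 genes past 2-fold that had a window. At shares of 8.42% and 8.29%, 6 genes are too few to tell such an absence from that of other genes.

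The proteases, the largest role group, had most genes past 2-fold, 4 of 12 (33.3%, beside 5.19% of all genes). Their median log2 ratio was 0.58. These were 3 cysteine cathepsins and legumain. Ctsh (NCBI gene 13036), cathepsin H, an aminopeptidase, had 180.2 FPKM in the ClpP siRNA library and 59.5 FPKM in the GFP siRNA library, a log2 ratio of 1.58. Ctsb (NCBI gene 13030), cathepsin B, which cuts both within proteins and at their carboxyl ends, had 524 FPKM in the ClpP siRNA library and 190.2 FPKM in the GFP siRNA library, a ratio of 1.46. Lgmn (NCBI gene 19141), legumain, which cuts after asparagine and processes cathepsins, had 125 FPKM in the ClpP siRNA library and 49.1 FPKM in the GFP siRNA library, a ratio of 1.33. All 3 lay above their local ranges, whose upper ends were 0.39, 0.56 and 0.37. Ctsz (NCBI gene 64138), cathepsin Z, a carboxypeptidase, had 807 FPKM in the ClpP siRNA library and 357 FPKM in the GFP siRNA library, a ratio of 1.18. It was the third most abundant of the 48 genes in the ClpP siRNA library and ranked 6 in the GFP siRNA library.

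Other proteases were below 2-fold. Ctsl, cathepsin L, the major endopeptidase among the cysteine cathepsins, had 895 FPKM in the ClpP siRNA library and 529 FPKM in the GFP siRNA library, a log2 ratio of 0.76. Ctsc, cathepsin C, which activates serine proteases of immune cells, had 37.3 FPKM in the ClpP siRNA library and 22.7 FPKM in the GFP siRNA library, a ratio of 0.69. Both were above their local ranges, as was Ctso, a little-studied cysteine cathepsin, at 0.40. Tpp1, tripeptidyl peptidase, had a ratio of 0.42, within its local range. Ctss, cathepsin S, the enzyme that trims the invariant chain of MHC class II in antigen-presenting cells, was near the lower limit of level, with 1.69 FPKM in the ClpP siRNA library and 0.938 FPKM in the GFP siRNA library.

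The cathepsins of other catalytic types, Ctsd and Ctsa, and the cysteine cathepsin Ctsf differed little or were lower. Ctsd, cathepsin D, the main aspartic protease of lysosomes, had 1051 FPKM in the ClpP siRNA library and 1027 FPKM in the GFP siRNA library, a log2 ratio of 0.03. It was the most abundant of the 48 genes in both libraries. Ctsa, the serine carboxypeptidase that also shields beta-galactosidase and neuraminidase, had 106 FPKM in the ClpP siRNA library and 123 FPKM in the GFP siRNA library, a ratio of -0.21. Ctsf, cathepsin F, had 12.4 FPKM in the ClpP siRNA library and 19.7 FPKM in the GFP siRNA library. Its ratio of -0.63 was the lowest of the 48 and below its local range of -0.34 to 0.36. Over the 8 cysteine cathepsins the median ratio was 0.73, with 7 above 0 (87.5%, beside 49.3% of all genes). Their summed level was 2477 FPKM in the ClpP siRNA library and 1192 FPKM in the GFP siRNA library.

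The glycosidases, which remove sugars from glycoproteins, glycolipids and glycosaminoglycans, differed less, with a median log2 ratio of 0.28. Past 2-fold was 1 of 11 (9.09%, beside 5.19% of all genes), a share that rests on 1 gene. Gla (NCBI gene 11605), alpha-galactosidase A, the enzyme missing in Fabry disease, had 29.9 FPKM in the ClpP siRNA library and 13.2 FPKM in the GFP siRNA library, a ratio of 1.12. With a pseudocount of 5 in place of 1 its ratio was 0.94, short of 2-fold. Naglu (0.56), which trims heparan sulfate, Neu1 (0.49), a sialidase, and Gaa (0.48), which degrades glycogen, were also above their local ranges. Gaa had 84.1 FPKM in the ClpP siRNA library and 60.1 FPKM in the GFP siRNA library. The other 7, Fuca1 (0.32), Glb1 (0.28), Manba (0.15), Idua (0.10), Hexa (0.01), Man2b1 (-0.02) and Gusb (-0.12), were within theirs. Hexa, the alpha subunit of beta-hexosaminidase, had 104.9 FPKM in the ClpP siRNA library and 104.1 FPKM in the GFP siRNA library. The Hexa level was nearly equal in the 2 libraries, while that of Gla was not.

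The 4 sulfatases, which remove sulfate groups from glycans and lipids, had 2 ratios above 0 (50%, beside 49.3% of all genes) and 2 below. Arsb, which acts on dermatan sulfate, had 26.4 FPKM in the ClpP siRNA library and 18.7 FPKM in the GFP siRNA library, a log2 ratio of 0.47. Ids, iduronate sulfatase, had 4.86 FPKM in the ClpP siRNA library and 6.45 FPKM in the GFP siRNA library, a ratio of -0.35, just below its local range of -0.32 to 0.36. Sgsh (0.19) and Arsa (-0.11) lay between them, and no sulfatase was past 2-fold.

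Among the 9 genes that handle lipids, 1 was past 2-fold (11.1%, beside 5.19% of all genes), a share that rests on 1 gene. A ratio above 0 was found for 8 (88.9%, beside 49.3%), of which Asah1 was just below 0 after quantile normalization. The median of the 9 was 0.36. Npc2 (NCBI gene 67963), the soluble protein that takes up cholesterol in the lysosomal lumen, had 250.3 FPKM in the ClpP siRNA library and 81.0 FPKM in the GFP siRNA library, a log2 ratio of 1.62. Its partner Npc1, the membrane protein to which it hands cholesterol, had 38.9 FPKM in the ClpP siRNA library and 25.4 FPKM in the GFP siRNA library, a ratio of 0.59. Both were above their local ranges, and the ratio of Npc2 was the larger. Ppt1, which removes palmitate from proteins, had 75.1 FPKM in the ClpP siRNA library and 52.8 FPKM in the GFP siRNA library, a ratio of 0.50.

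The remaining lipid genes lay within their local ranges. Lipa, the acid lipase that frees cholesterol from lipoprotein esters, had 62.8 FPKM in the ClpP siRNA library and 47.8 FPKM in the GFP siRNA library, a log2 ratio of 0.39. Psap, the precursor of the saposins that present sphingolipids to their enzymes, had 529 FPKM in the ClpP siRNA library and 435 FPKM in the GFP siRNA library, a ratio of 0.28. The phospholipase Pla2g15 had 0.36, the sphingomyelinase Smpd1 0.30, the ceramidase Asah1 0.07 and the ganglioside activator Gm2a -0.14 as log2 ratios. The sphingolipid enzymes Smpd1 and Asah1 thus differed less than the cholesterol carrier Npc2. So did Npc1 (0.59) and Lipa (0.39), which also handle cholesterol.

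The 7 membrane proteins that passed the filter all had a log2 ratio above 0, where 49.3% of all genes did. Their median was 0.43, and 0.41 without Cd68. Cd68 alone among them was past 2-fold (14.3%, beside 5.19% of all genes). Scarb2, an abundant lysosomal membrane protein, had 203 FPKM in the ClpP siRNA library and 111 FPKM in the GFP siRNA library, a ratio of 0.87. Laptm4a, a small transmembrane protein, had 261 FPKM in the ClpP siRNA library and 173 FPKM in the GFP siRNA library, a ratio of 0.59. These were above their local ranges, while the abundant structural proteins were within theirs. Lamp1 had 792 FPKM in the ClpP siRNA library and 694 FPKM in the GFP siRNA library, a ratio of 0.19. Lamp2 had 218 FPKM in the ClpP siRNA library and 165 FPKM in the GFP siRNA library, a ratio of 0.40. Cd63, a tetraspanin of late endosomes, had a ratio of 0.43, and Mcoln1, the calcium channel of the lysosome, 0.34.

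Of the 4 phosphatases and regulators, progranulin alone was past 2-fold (25%, beside 5.19% of all genes). Grn (NCBI gene 14824), a secreted precursor that is cut into granulins in the lysosome, had 706 FPKM in the ClpP siRNA library and 275 FPKM in the GFP siRNA library, a log2 ratio of 1.35. Acp5, the tartrate-resistant acid phosphatase known from osteoclasts and macrophages, had 137.5 FPKM in the ClpP siRNA library and 86.8 FPKM in the GFP siRNA library, a ratio of 0.66. Both were above their local ranges. Acp2, the general lysosomal acid phosphatase, had 13.9 FPKM in the ClpP siRNA library and 13.1 FPKM in the GFP siRNA library, a ratio of 0.07. The transcript of Tfeb, the transcription factor of lysosomal genes, had 4.74 FPKM in the ClpP siRNA library and 5.09 FPKM in the GFP siRNA library, a ratio of -0.08. Tfeb is controlled largely by where its protein sits in the cell, which these data do not measure.

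**Figure D3:**
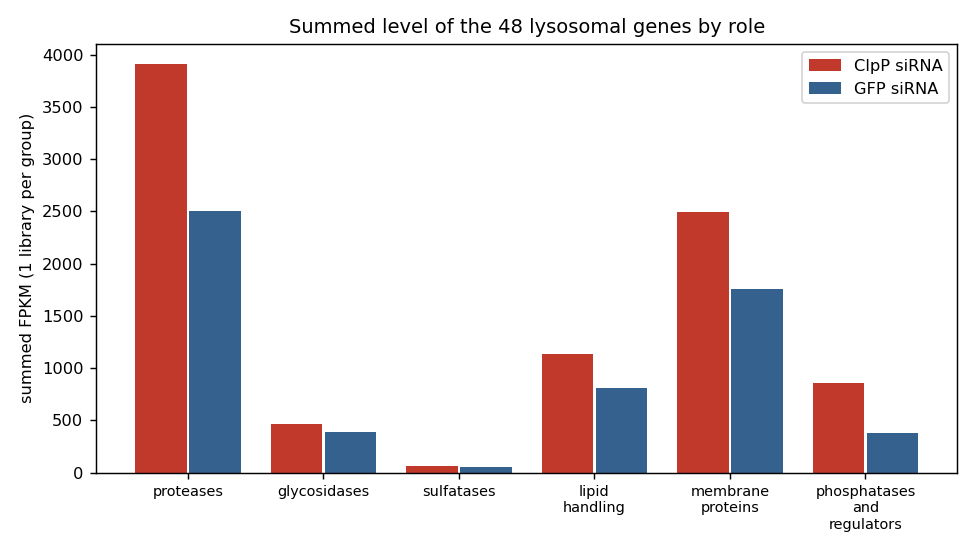
Summed FPKM of the 48 lysosomal genes by role, with the ClpP siRNA library (red) left of the GFP siRNA library (blue), 1 library per group and no error bars. The proteases sum to 3907 FPKM with ClpP siRNA and 2503 FPKM with GFP siRNA, and the glycosidases to 464 and 391 FPKM.

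Of 117 genes of other lysosomal functions, taken from lists outside the 48, 105 passed the filter, with a median log2 ratio of 0.10. Of these, 4 were at least 2-fold higher (3.81%, beside 5.19% of all genes) and 1 was at least 2-fold lower (0.95%, beside 2.04%). All 4 higher genes were among the other hydrolases, of which 28 passed the filter with a median of 0.28. Of these 28, 14.3% were thus at least 2-fold higher, 75% had a ratio above 0 and 35.7% lay above their local ranges. The shares above 0 and above the local range were nearer to those of the 47 genes than to those of all genes. The share at 2-fold rests on 4 genes, among them Ctsw, Rnaset2a and Rnaset2b, and is left without such a comparison. Ctsw, cathepsin W, known from cytotoxic lymphocytes, had 5.02 FPKM in the ClpP siRNA library and 0.476 FPKM in the GFP siRNA library, a ratio of 2.03. It passed the filter only through its level in the ClpP siRNA library. Rnaset2a and Rnaset2b, near-identical copies of an acid ribonuclease whose reads may be exchanged, had ratios of 1.28 and 1.22. The ratio was negative for Epdr1, at -0.86.

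The machinery that builds and acidifies lysosomes showed no gene past 2-fold except the sialic acid transporter Slc17a5, at -1.05. It had 6.08 FPKM in the ClpP siRNA library and 13.7 FPKM in the GFP siRNA library. Of all genes, 5.19% were at least 2-fold higher and 2.04% at least 2-fold lower. The 25 membrane proteins outside the 48 had a median log2 ratio of 0.06, with the amino acid transporter Pqlc2 at 0.57 and the membrane protein Tmem192 at 0.42. The 17 subunits and accessory proteins of the vacuolar ATPase, the proton pump, had a median of 0.08 and ranged from -0.58 (Atp6v0a1) to 0.48 (Atp6v1a). The 17 sorting genes had a median of 0.10, and of 0.00 on the quantile normalized scale. Their largest ratios were those of Nagpa (0.60), which uncovers the mannose 6-phosphate tag, M6pr (0.53), one of its receptors, and Sumf1 (0.45), which activates sulfatases. The cysteine protease inhibitors Cstb (0.33) and Cst3 (0.10) were within their local ranges. Regulators of TFEB and the mTORC1 anchor Ragulator had a median of -0.09 over 16 genes, with the GTPase Rragd at -0.73, the TFEB relative Mitf at 0.62 and Rraga at -0.48.

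**Figure D4:**
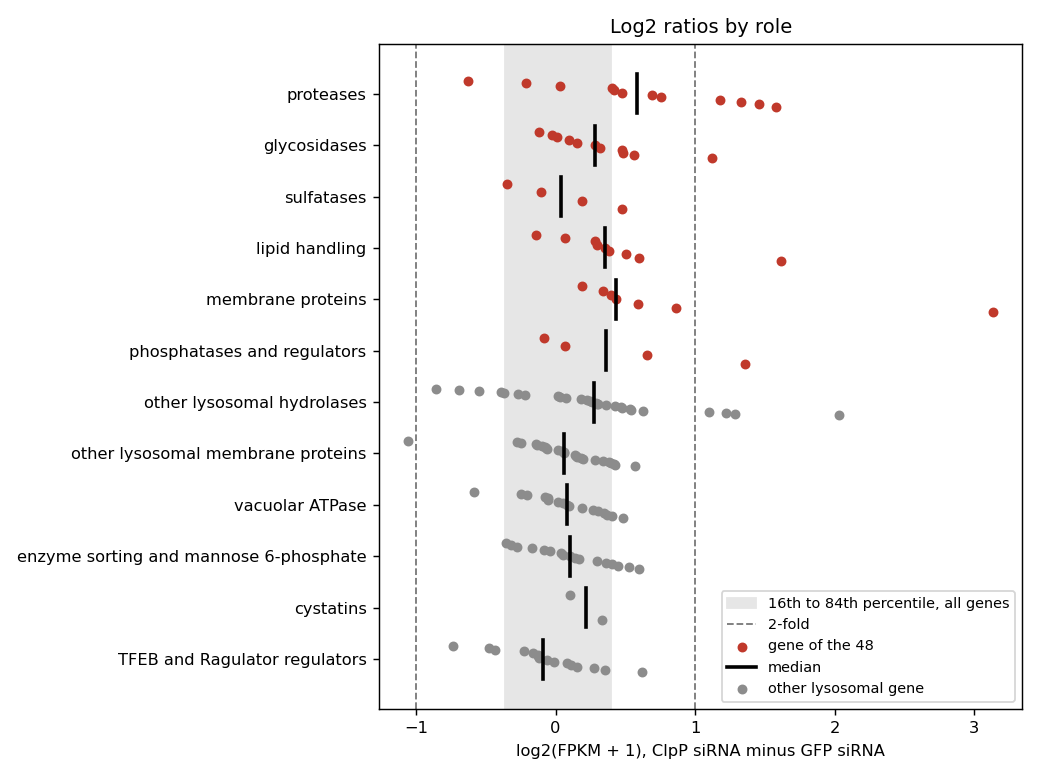
Log2 ratio of ClpP siRNA minus GFP siRNA for each lysosomal gene that passed the filter, by role, with 1 point per gene (red for the 48, grey for other lysosomal genes), black bars for medians, a grey band for the 16th to 84th percentile of all genes (-0.36 to 0.40) and dashed lines for 2-fold. Medians range from 0.58 for the proteases to -0.09 for the TFEB and Ragulator regulators, and the point farthest right is Cd68.

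Cd68 (NCBI gene 12514), a heavily glycosylated lysosomal membrane protein widely used as a macrophage marker, had the largest log2 ratio of the 48, 3.14. Its level was 226 FPKM in the ClpP siRNA library and 24.9 FPKM in the GFP siRNA library, 9.10 times as high, and 0.51% of all genes had a higher ratio. By level it ranked 11 of the 48 in the ClpP siRNA library and 30 in the GFP siRNA library. The authors' deposited table gives Cd68 a signed fold change of 8.1. The next gene on the chromosome, Eif4a1, a translation factor, had 409 FPKM in the ClpP siRNA library and 437 FPKM in the GFP siRNA library, a log2 ratio of -0.10. The neighbour on the other side, Mpdu1, had a ratio of 0.05. The ratio of Cd68 was thus not shared by its neighbours.

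Most macrophage markers went the other way. Of 29 markers 23 were in the table, and 17 of these were lower in the ClpP siRNA library and 6 higher. Of the 9 markers that passed the filter on level, 2 (22.2%) had a ratio above 0, beside 49.3% of all genes that passed it. Among the 23 markers, 14 had a mean below 1 FPKM and did not pass that filter. Timd4, Itgax, Cx3cr1, Ccr2, Cd163 and Aif1 were not analysed here. Adgre1 (named Emr1 in the table), which encodes F4/80, had 0.157 FPKM in the ClpP siRNA library and 0.432 FPKM in the GFP siRNA library. Clec4f, a Kupffer cell receptor, had 0.0718 FPKM in the ClpP siRNA library and 0.777 FPKM in the GFP siRNA library. Csf1r, the receptor for the macrophage growth factor, had 0.202 FPKM in the ClpP siRNA library and 0.690 FPKM in the GFP siRNA library. These markers were below 1 FPKM in both libraries and lower in the ClpP siRNA library. Also below 1 FPKM in both libraries, Ly6c2, Fcgr1 and Fcgr3 were higher in the ClpP siRNA library. They had 0.950, 0.199 and 0.224 FPKM there, and 0.0792, 0.0421 and 0.114 FPKM in the GFP siRNA library. Itgam was nearly equal, with 0.0238 FPKM in the ClpP siRNA library and 0.0227 FPKM in the GFP siRNA library.

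The markers that passed the filter were 9, with a median log2 ratio of -0.58, which reversed to 1.29 with a minimum mean of 5 FPKM, since only Mpeg1 and Cd14 were then left. They were Lyz2 (-0.97), lysozyme, Tyrobp (-0.98), Cd5l (-0.89), the complement genes C1qa (-0.76), C1qc (-0.58) and C1qb (-0.40), and Fcer1g (-0.28), with Mpeg1 and Cd14 above 0. Mpeg1, perforin-2, a pore-forming protein that interferon induces, had 124 FPKM in the ClpP siRNA library and 23.2 FPKM in the GFP siRNA library, a ratio of 2.37. Cd14, a lipopolysaccharide co-receptor that hepatocytes also make, had 51.8 FPKM in the ClpP siRNA library and 44.5 FPKM in the GFP siRNA library, a ratio of 0.21. Without these 2, no marker exceeded 1.68 FPKM in the ClpP siRNA library or 3.98 FPKM in the GFP siRNA library. The 21 other markers summed to 10.5 FPKM in the ClpP siRNA library and 22.7 FPKM in the GFP siRNA library. Cd68 alone, at 226 and 24.9 FPKM in the same libraries, was above the sum of these 21 markers in both. With Mpeg1 and Cd14, the 23 markers summed to 186.4 FPKM in the ClpP siRNA library and 90.5 FPKM in the GFP siRNA library. Cd68 was above that full sum in the ClpP siRNA library only. Laptm5 and Ctss were near or below 1 FPKM in the GFP siRNA library and below 2 FPKM in the ClpP siRNA library. The log2 ratio of Ctss was 0.48. Acp5 and Ctsc, also named above with macrophages or immune cells, were more abundant. They had 137.5 and 37.3 FPKM in the ClpP siRNA library, and 86.8 and 22.7 FPKM in the GFP siRNA library.

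**Figure D5:**
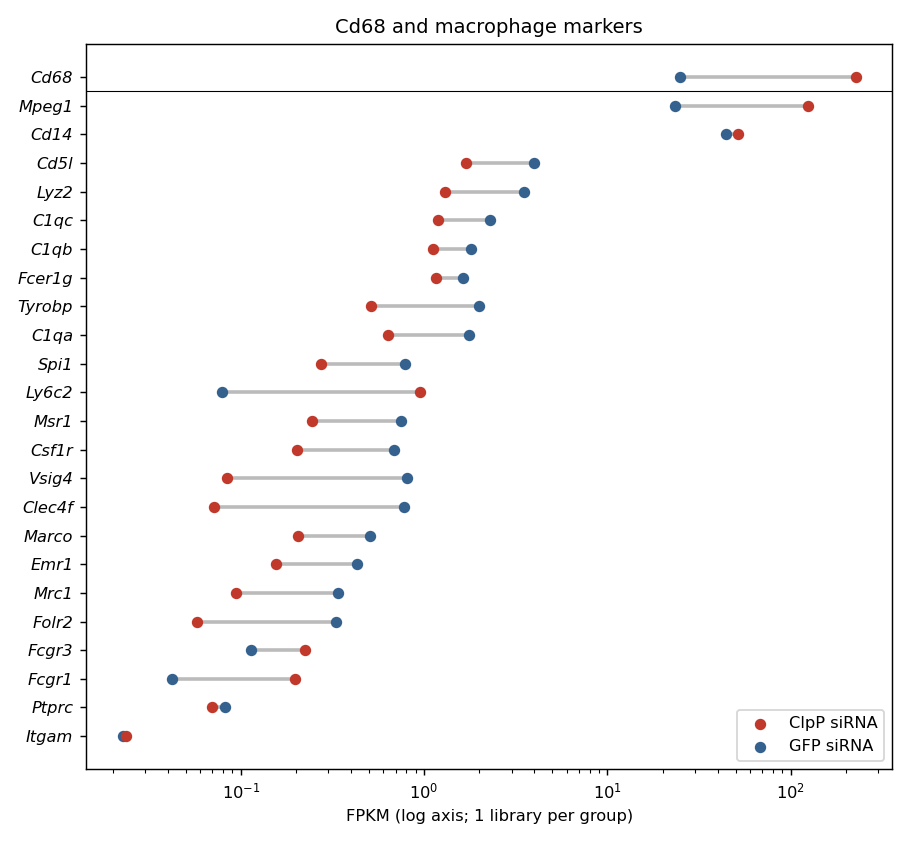
Level in FPKM (log axis) of Cd68 (top row) and of 23 macrophage markers in the ClpP siRNA library (red) and the GFP siRNA library (blue), 1 point per library, sorted by mean level. Cd68 and Mpeg1 are higher with ClpP siRNA, while Cd5l, Lyz2 and the C1q genes are lower.

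Of the 48 genes, 10 overlap another protein-coding gene of the table in the RefSeq annotation, and the library kit does not mark strand, so that reads in the shared part cannot be told apart. Among the genes past 2-fold these were Ctsb, which overlaps Fdft1, and Ctsz, which overlaps Nelfcd. Fdft1 had 22.7 FPKM in the ClpP siRNA library and 31.0 FPKM in the GFP siRNA library. Nelfcd had 23.3 FPKM in the ClpP siRNA library and 19.1 FPKM in the GFP siRNA library. Both levels are small beside those of Ctsb and Ctsz. Ppt1 overlaps Cap1, which was more abundant than Ppt1 itself, with 179 FPKM in the ClpP siRNA library and 142 FPKM in the GFP siRNA library, a log2 ratio of 0.33.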

How the data were processed

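Poly-A RNA of 2 libraries, 1 from hepatocytes given ClpP siRNA and 1 from hepatocytes given GFP siRNA, was compared. Per the file headers, the values are FPKM, made by the authors. The submitters' processing notes name STAR 2.4.0f1, TopHat2 2.0.13, Cufflinks 2.2.1, Bowtie2 2.2.3, Trimmomatic 0.32 and FastQC 0.10.0; the sources used here give neither their roles nor the genome build. The log2 values deposited by the authors equal log2(FPKM + 1) after quantile normalization to within 0.001. The authors' deposited signed fold change, treated as a score, derives from those log2 values. The ClpP siRNA column carries an abbreviated header, assigned by its name and by no value. FPKM keeps no read count, so the depth of each library is unknown and no interval is given.

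None of the 14346 rows was at 0 in either library, and genes at 0 were not analysed here. Of these, 7 rows without a gene name were left out (0.0335% of the FPKM total in the ClpP siRNA library and 0.0475% in the GFP siRNA library). Log2(FPKM + 1) differences were computed in Python 3.11.15 with pandas 2.3.3 for genes with a mean of at least 1 FPKM, without rescaling, and the size rule was tested on simulated data. Alternatives were pseudocounts of 0.1 and 5, no filter, a mean of at least 5 FPKM, equal FPKM totals (TPM), centring on the median and the quantile normalized values. Every one of the 48 genes is named, beside up to 3 genes of each other lysosomal list with the largest ratios; Epdr1, the genes that neighbour or overlap those described, and the markers were named after their values were seen. One gene of the other hydrolases is not reported here by name. The genes and lists were chosen with earlier results of these data known. Symbols of all 48 matched the RefSeq annotation on GRCm38.p6, which served for promoter sequences and for which genes neighbour or overlap each other.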

Additional observations from a re-analysis of the deposited data

How the results depend on the processing

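The count of 8 genes at least 2-fold higher stayed between 7 and 8 under 7 other settings, the 1 gene that changed sides being Gla with a pseudocount of 5 (0.94), and the count of lower genes stayed at 0. The medians of the 48 genes and of the 4 role groups tested moved by at most 0.2 on the log2 scale, and Cd68 stayed past 2-fold. The median of the macrophage markers depended on the processing. It was -0.58 as reported, -0.88 with a pseudocount of 0.1, -0.23 with a pseudocount of 5 and -0.33 with no filter (23 markers), and it reversed to 1.29 with a mean of at least 5 FPKM, where only Mpeg1 and Cd14 were left. Leaving out Cd68, or Mpeg1 and Cd14, was chosen after seeing the data. No paired analysis was possible because each group has 1 library. The unknown depth limits what can be said of genes near 1 FPKM.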
